A study of Schizosaccharomyces pombe with 6 samples.

Results

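Heat shock and chaperone genes of fission yeast (Schizosaccharomyces pombe) were taken as a list of 8 by name: sks2, ssa1, ssa2, hsp90, hsp104, hsp16, hsp9 and hsp78. Their Rad52 signal was read from the tiling-array probes that overlapped each gene or lay within 500 bp of it. For sks2 and hsp16 a fixed span was used with those flanks (chrII:1105501-1109500 and chrII:2659501-2661500). Of the 8 genes, 6 were placed in this way, with 70 of the 42707 probes on the array. The genes hsp90 (SPAC926.04C) and hsp9 (SPAP8A3.04C) lie on chromosome I beyond position 3700000, where the array coordinates and the annotation do not match, and were not analysed here.

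The series measured Rad52 binding by chromatin immunoprecipitation on 2-colour arrays (ChIP-on-chip) in early S phase. There were 3 arrays of ∆rad3 cdc25-22 cells and 3 arrays labelled WT, also cdc25-22. All cells therefore carried the temperature-sensitive cdc25-22 allele, which stops the cycle before mitosis in the heat. The culture in EMM6S was arrested at 36.5 °C for 4 h and let go at 25 °C, and HU (hydroxyurea, 6 mM) was present until cells were taken 60 min after release. Cells of both strains had thus been through the same heat step, and no array came from cells kept at the lower temperature throughout. Whether the 3 arrays of a strain stem from separate cultures is not labelled, and the p-values cover the spread between arrays, technical or not. No control immunoprecipitation was used, so unspecific signal is part of every level given here.

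One array went against its label. Among the 33 probes of rad3, the input DNA of each ∆rad3 array was not well above background at 9 probes, against 0 probes on WT replicates 1 and 3. The library labelled WT replicate 2 had 24 such probes. It was kept in its labelled group, and many WT levels and differences are also given without it. Values given only once include it. The arrays had 97.9% to 99.9% of probes well above background in the input and 94.1% to 99.9% in the immunoprecipitate (IP). Their spread was uneven. The SD of log2 IP/input over an array was 0.36 for WT replicate 1, 0.71 for WT replicate 2 and 0.72 for WT replicate 3. For the ∆rad3 arrays it was 0.38, 0.43 and 0.65. The main fit did not scale for this, so the same level can rank differently from array to array. Precision is limited by having 3 arrays a strain.

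Rad52 is a protein of homologous recombination that gathers where forks have stalled or DNA has broken. Rad3 is the fission yeast ATR kinase, which starts the replication checkpoint when HU depletes nucleotides. Chaperone genes are among the most strongly inducible genes of yeast. Hsp70 proteins hold unfolded chains, with J proteins and exchange factors driving their ATPase cycle. Hsp100 proteins pull aggregates apart, and small heat shock proteins bind unfolding proteins without ATP. The factor Hsf1 turns many of these genes on through heat shock elements, which are alternating GAA and TTC units.

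Levels below are log2 IP/input, with each array's median at 0. A gene window or probe was called enriched in a strain when its mean was at least 0.5 with a limma adjusted p under 0.05, Benjamini-Hochberg adjusted over all features. By this rule 3.09% of the 10390 gene windows were enriched in ∆rad3 and 4.05% in WT. The chaperone genes are protein-coding, as were 4288 of the 10390 windows. Those 4288, adjusted with all windows, held 48 enriched in ∆rad3 and 130 in WT. Of the protein-coding windows, 8.33% were higher on every ∆rad3 array than on every WT array, and 6.51% were lower. Of the 6 chaperone windows, none was enriched in ∆rad3 and 1, sks2, was enriched in WT. None of the 10390 gene windows tested differed between strains at a limma adjusted p under 0.05 (0.0% higher and 0.0% lower in ∆rad3). At an unadjusted limma p under 0.05, 910 differed (6.64% higher and 2.12% lower). Without WT replicate 2, the enriched share of all windows was 5.84% in ∆rad3 and 1.67% in WT, and none of the 6 was enriched in either strain. With the replicate number as a block, 5.52% of windows were enriched in ∆rad3 and 5.53% in WT, and of the 6 again sks2 alone, in WT. The block made 75 windows higher in ∆rad3 (0.722%), and none of the 6 was among them.

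The sequence at the highest probe of the list is shown because the strongest signal sat just past a gene rather than inside it. The 150 bases after the annotated end of sks2, from the ASM294v3 assembly, are chrII:1108512-1108661 on the plus strand. Capitals mark the bases that the probe covers.
sks2 gene end: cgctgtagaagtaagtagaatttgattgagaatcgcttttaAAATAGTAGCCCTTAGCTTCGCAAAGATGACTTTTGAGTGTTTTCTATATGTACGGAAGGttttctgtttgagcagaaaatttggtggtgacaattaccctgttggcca

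Heat shock element letters were looked for on both strands in the 300 bases from 250 before to 50 after each annotated gene start. The palindrome GAANNTTC stood in 11.1% of 5112 protein-coding promoters, and the palindrome TTCNNGAA in 10.2%. A run of 3 units, TTCNNGAANNTTC or GAANNTTCNNGAA, which holds both palindromes, stood in 0.469% of them. The ssa1 and ssa2 promoters held the 3-unit run, starting 58 and 59 bases before the gene. The hsp16 promoter held GAANNTTC 93 bases before the gene and no longer run. The windows of sks2, hsp104 and hsp78 held none of these letters. The 30 bases around each of these matches are shown so that the matches can be compared. Capitals mark the whole match, which takes in the bases between the GAA and TTC units. The 30-base stretches are chrI:2298010-2298039 on the minus strand, chrIII:2056967-2056996 on the plus strand and chrII:2661067-2661096 on the minus strand.
ssa1 upstream: cgagggttagggttggtGAAGGTTCGAGAA
ssa2 upstream: gagggttagggttttggGAAACTTCGAGAA
hsp16 upstream: aacgtttacgaGAAAATTCgagtcatcgta

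The Hsp70 gene sks2 (SPBC1709.05, chrII:1106396-1108511, plus strand) encodes the chaperone that works at the ribosome on chains still being made. Its window had 13 probes. It stood at 0.21, 0.30 and 0.62 on the 3 ∆rad3 arrays, against 0.45, 0.90 and 0.75 on the WT arrays. Ranked within each array, the window was at percentiles 78.6, 86.3 and 92.4 in ∆rad3, against 95.1, 95.3 and 97.7 in WT. These percentiles did not overlap between strains, and were not tested. All 6 arrays were above their own median, which held for 12.7% of gene windows, and the levels of the strains overlapped. The mean was 0.37 ± 0.21 in ∆rad3 (SD, n = 3; limma adjusted p = 0.127) and 0.70 ± 0.23 in WT (SD, n = 3; limma adjusted p = 0.0130). That put sks2 at the 89.9th percentile of gene windows in ∆rad3 and at the 97.7th in WT, rank 235 of 10390. The WT call was lost without either of 2 arrays. Without WT replicate 2, the array against its label, the WT level was 0.60 with a limma adjusted p of 0.0547. Without WT replicate 3 it was 0.67 with an adjusted p of 0.0793.

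**Figure D1:**
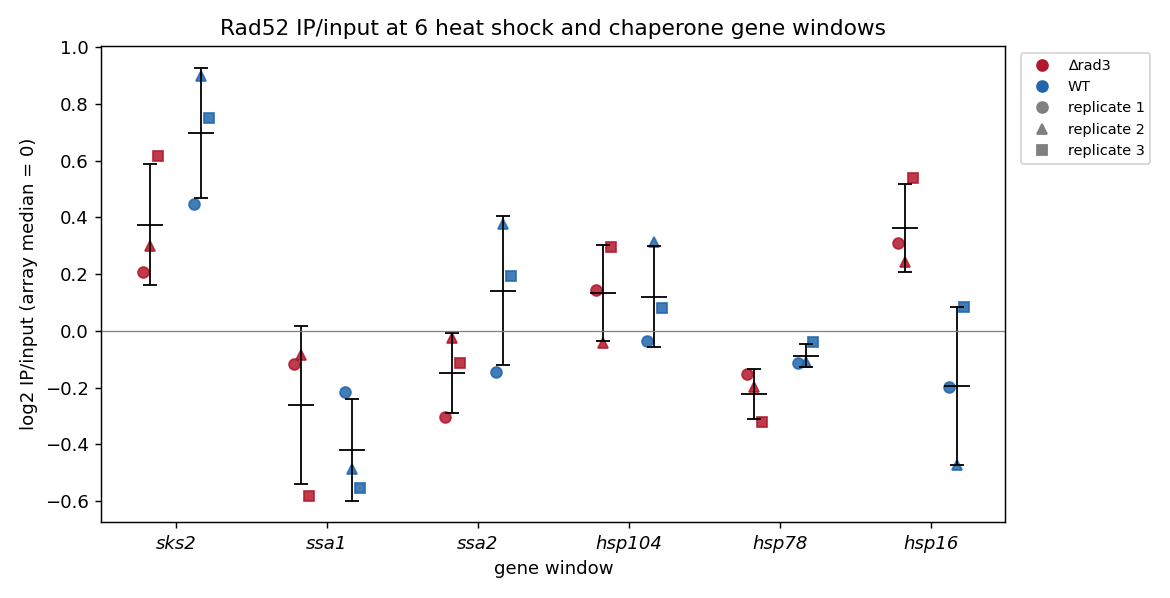
Log2 Rad52 IP/input (vertical axis, array median at 0) at the 6 gene windows, with ∆rad3 in red left of WT in blue, 1 point an array, and the mean with SD of 3 arrays as bars. The sks2 window lies above 0 on all 6 arrays, ssa1 lies below 0 on all 6, and at hsp16 the lowest ∆rad3 array (0.24) lies above the highest WT array (0.09).

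Within the sks2 window the probes ranged from 0.02 to 1.00 in ∆rad3 and from 0.03 to 1.53 in WT, lowest at the probe farthest downstream. In the part of the gene nearer its start the 3 probes averaged 0.28 ± 0.39 in ∆rad3 and 0.68 ± 0.15 in WT, and in the part nearer its end 0.29 ± 0.11 in ∆rad3 and 0.63 ± 0.26 in WT (SD, n = 3 arrays each). On ∆rad3 replicate 2 the part nearer the end rests on the probe at chrII:1108086-1108145 alone, since outlier spots were left out. Over all protein-coding genes, the medians of such parts and flanks lay between -0.07 and 0.06 in ∆rad3 and between -0.09 and 0.08 in WT. The probe shown above, centred 70.5 bp past the gene end (chrII:1108553-1108612), was the highest of the 70. It stood at 1.04, 1.09 and 0.87 on the ∆rad3 arrays, against 1.39, 2.26 and 0.96 on the WT arrays. Its mean was 1.00 ± 0.12 in ∆rad3 (limma adjusted p = 0.112) and 1.53 ± 0.66 in WT (limma adjusted p = 0.0159), at percentiles 98.2 and 99.8 of all probes. It was the 1 probe of the 70 enriched in WT, against 0.609% of all probes, and no member probe was enriched in ∆rad3, against 0.533%. Without WT replicate 2 the limma adjusted p was 0.0387 in ∆rad3, where it was then the 1 member probe enriched (1.25% of all probes), and 0.122 in WT (0.00237%). With the replicate block, 1 member probe was enriched in ∆rad3 (2.07% of all probes) and 5 in WT (2.68%). The bases under it lie between sks2 and dus2, a tRNA dihydrouridine synthase gene that starts at position 1108708, and inside the annotated antisense lncRNA SPNCRNA.5021.

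Of the 70 probes, 4 were above 0 on all 6 arrays, and all 4 were at sks2 (6.86% of all probes did so). Besides the probe past the gene end they lay upstream (0.76 ± 0.36 in ∆rad3, 0.75 ± 0.44 in WT), late in the gene (0.46 ± 0.15 in ∆rad3, 0.72 ± 0.22 in WT) and farther downstream (0.25 ± 0.20 in ∆rad3, 0.82 ± 0.38 in WT). The sks2 window, which takes in both flanks and the start of dus2, also stood above its surroundings. The 26 probes up to 4 kb outside the window averaged 0.15 ± 0.06 in ∆rad3 and 0.11 ± 0.20 in WT. The window exceeded them on 6 of 6 arrays, by 0.22 ± 0.17 in ∆rad3 and 0.59 ± 0.13 in WT. For the gene alone this did not hold on every ∆rad3 array. The outside probes averaged 0.09, 0.18 and 0.20 on the ∆rad3 arrays. The part of the gene nearer its start stood at 0.05, 0.06 and 0.73 there, and the part nearer its end at 0.16, 0.35 (from a single probe) and 0.35. One probe outside the window, at -1822.5 bp from the gene start, went the other way. It stood at 1.28, 1.13 and 1.96 in ∆rad3, against 0.23, 0.41 and 1.00 in WT. That probe was noticed in the profile of values around sks2 and was not chosen by the list.

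**Figure D2:**
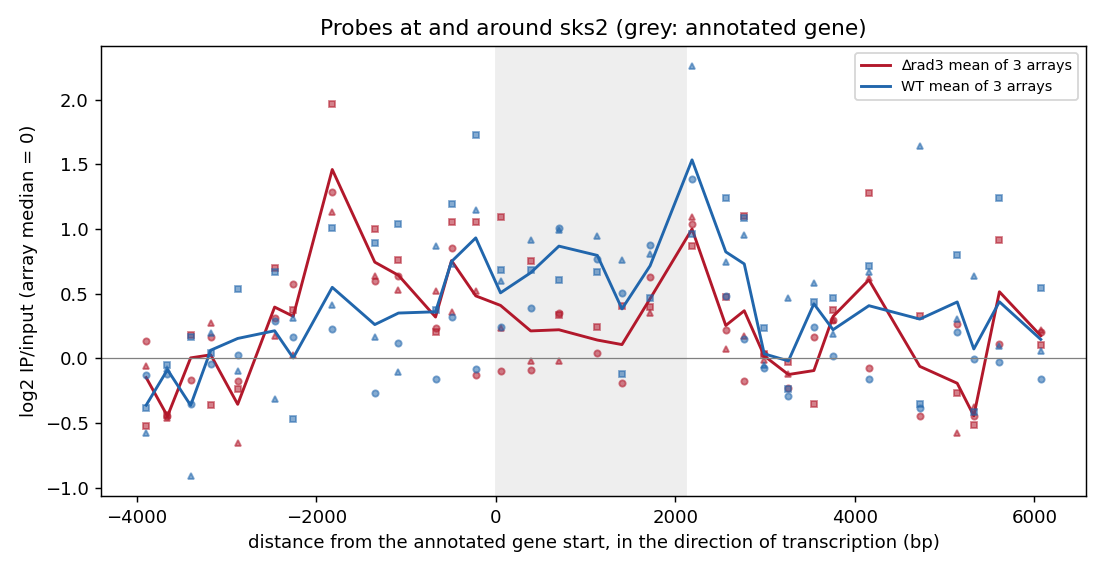
Log2 Rad52 IP/input (vertical axis) at probes around sks2 by distance from the annotated gene start in bp (horizontal axis), ∆rad3 in red and WT in blue, points for arrays and lines for strain means. The highest mean in the gene's window is the probe just past the gene end, at 1.00 in ∆rad3 and 1.53 in WT, and a ∆rad3 peak of 1.46 lies upstream, outside the window.

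The strain difference at sks2, ∆rad3 minus WT, was -0.33 (SE 0.18, 95% interval -0.72 to 0.07, limma adjusted p = 0.634). On the 3 slides, each with 1 array of each strain, it was -0.24, -0.60 and -0.14, and without WT replicate 2 it was -0.23 (limma adjusted p = 0.755). The ratio combines an IP and an input channel, which were also read apart as log2 signal centred on each array. The IP signal was 0.78, 0.80 and 0.88 in ∆rad3, against 1.22, 1.38 and 1.03 in WT, so that every ∆rad3 array was lower, as for 5.12% of gene windows. The input signal was similar, at 0.49 ± 0.16 in ∆rad3 and 0.52 ± 0.25 in WT. No test was made on single channels. In the sks2 window, 3 probes were lower on every ∆rad3 array than on every WT array, as were 5.71% of all probes. One of the 3 (chrII:1108929-1108988) lay past the gene end, within dus2. The other 2 were neighbouring probes inside the gene, at 0.22 in ∆rad3 against 0.87 in WT, and at 0.14 in ∆rad3 against 0.80 in WT. The second value in ∆rad3 rests on 2 arrays, since an outlier spot was left out.

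The cytosolic Hsp70 gene ssa1 (SPAC13G7.02C, chrI:2295580-2297964, minus strand) had 10 probes and the opposite sign. It stood at -0.12, -0.09 and -0.58 in ∆rad3, against -0.22, -0.49 and -0.56 in WT. All 6 arrays were below their median and the strains overlapped. The mean of -0.26 ± 0.28 in ∆rad3 was at percentile 8.92 (limma adjusted p = 0.281), and that of -0.42 ± 0.18 in WT at percentile 7.99 (limma adjusted p = 0.0606, and 0.0239 with the replicate block). Signal was weak in both channels here, and their part in the ratio was not tested. The input averaged -1.02 ± 0.10 in ∆rad3 and -1.18 ± 0.07 in WT, and the IP -1.31 ± 0.29 in ∆rad3 and -1.61 ± 0.20 in WT. Of 60 spots in all, 10 were not well above background in the IP and 1 in the input. The difference was 0.16 (SE 0.18, 95% interval -0.25 to 0.56, limma adjusted p = 0.822), with 0.10, 0.40 and -0.03 on the 3 slides.

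Its paralogue ssa2 (SPCC1739.13, chrIII:2057043-2059331, plus strand, 13 probes), also a cytosolic Hsp70, lay between sks2 and ssa1 in the mean of each strain. It stood at -0.30, -0.03 and -0.11 in ∆rad3, against -0.14, 0.38 and 0.19 in WT. Its mean was -0.15 ± 0.14 in ∆rad3 and 0.14 ± 0.26 in WT (limma adjusted p = 0.527 and 0.435), and 0.025 in WT without WT replicate 2. The groups overlapped only through WT replicate 1, and on each slide the ∆rad3 array was lower, with differences of -0.16, -0.40 and -0.31. The difference of -0.29 (SE 0.18, 95% interval -0.68 to 0.10) had a limma adjusted p of 0.662, and without WT replicate 2 it was -0.17 (adjusted p = 0.814). One probe late in the gene accounted for the widest gap, at -0.39, -0.70 and -1.21 in ∆rad3, against 0.31, -0.01 and 0.21 in WT (limma adjusted p = 0.958).

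The 3 Hsp70 genes share sequence, which bears on how separately an array can read them. The coding sequences of ssa1 and ssa2 were identical at 82.9% of aligned bases, with a longest identical run of 56 bp, while probes were 45 to 60 bases long. For sks2 the identity was 67.9% to each of the others, with longest runs of 23 bp to ssa1 and 39 bp to ssa2. DNA of ssa1 and ssa2 could therefore reach each other's probes, and the probe sequences were not used here. Compared within each array, sks2 was above ssa1 on 6 of 6 arrays, by 0.64 ± 0.49 in ∆rad3 and 1.12 ± 0.40 in WT. It was above ssa2 on 6 of 6 arrays, by 0.52 ± 0.20 in ∆rad3 and 0.56 ± 0.03 in WT. The gap between ssa2 and ssa1 was 0.11 ± 0.33 in ∆rad3 and 0.56 ± 0.43 in WT, with ssa2 higher on 5 of 6.

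Of the 2 Hsp100 genes, hsp104 lay near the array median and hsp78 below it. The cytosolic disaggregase gene hsp104 (SPBC16D10.08C, chrII:3612265-3615269, minus strand, 13 probes) stood at 0.14, -0.04 and 0.30 in ∆rad3, against -0.04, 0.31 and 0.08 in WT. The values were interleaved, with means of 0.13 ± 0.17 in ∆rad3 and 0.12 ± 0.18 in WT, or 0.023 in WT without WT replicate 2. The difference of 0.01 (SE 0.16, 95% interval -0.35 to 0.38, limma adjusted p = 0.986) was the smallest of the 6. On the 3 slides it was 0.18, -0.36 and 0.21, so the slides did not share a sign. Without WT replicate 2 the difference was 0.11 (limma adjusted p = 0.881). The surroundings of hsp104 were higher than the window itself on 5 of 6 arrays, and the window minus its surroundings averaged -0.07 in ∆rad3 and -0.31 in WT.

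The mitochondrial disaggregase gene hsp78 (SPBC4F6.17C, chrII:2723119-2725662, minus strand, 14 probes) stood at -0.15, -0.20 and -0.32 in ∆rad3, against -0.11, -0.11 and -0.04 in WT. Every ∆rad3 array was lower than every WT array, as for 5.77% of gene windows. The gap was small: -0.22 ± 0.09 in ∆rad3 and -0.09 ± 0.04 in WT, a difference of -0.14 (SE 0.14, 95% interval -0.45 to 0.18, limma adjusted p = 0.800). These means were at percentiles 12.9 in ∆rad3 and 41.3 in WT, and the window lay below its surroundings on 6 of 6 arrays, by a mean difference of -0.24 in ∆rad3 and -0.13 in WT. The strain difference was -0.04, -0.09 and -0.28 on the 3 slides, and -0.15 without WT replicate 2. Within arrays hsp104 exceeded hsp78 on 6 of 6, by 0.36 ± 0.24 in ∆rad3 and 0.21 ± 0.19 in WT.

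The small heat shock gene hsp16 (SPBC3E7.02C, chrII:2660139-2660992, minus strand) had 7 probes and the largest strain difference of the 6 genes. It stood at 0.31, 0.24 and 0.54 in ∆rad3, against -0.20, -0.47 and 0.09 in WT. Ranked within each array, the window was at percentiles 86.8, 82.1 and 90.3 in ∆rad3, against 17.4, 18.9 and 61.4 in WT. By level, every ∆rad3 array was higher than every WT array, as for 9.7% of gene windows. The mean was 0.36 ± 0.15 in ∆rad3, the 89.4th percentile, and -0.19 ± 0.28 in WT, the 27.7th (limma adjusted p = 0.141 and 0.298, neither called). The difference was 0.56 (SE 0.18, 95% interval 0.16 to 0.96), rank 347 of 10390. Its unadjusted limma p was 0.0110 and its adjusted p 0.391; 6.64% of windows were higher in ∆rad3 at an unadjusted p under 0.05. It was 0.51, 0.72 and 0.45 on the 3 slides. Without WT replicate 2, the lowest array, the WT mean was -0.056 and the difference 0.42 (limma adjusted p = 0.434), and with the replicate block the adjusted p was 0.140.

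The 2 channels of hsp16 were read apart as for sks2. The IP signal was 0.15, -0.04 and -0.19 in ∆rad3, against -0.52, -0.65 and -0.78 in WT, so that every ∆rad3 array was higher, as for 7.54% of gene windows. The input signal was -0.41 ± 0.36 in ∆rad3 and -0.45 ± 0.36 in WT. At both genes the strains thus overlapped in the input and stood apart in the IP, in opposite directions.

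**Figure D3:**
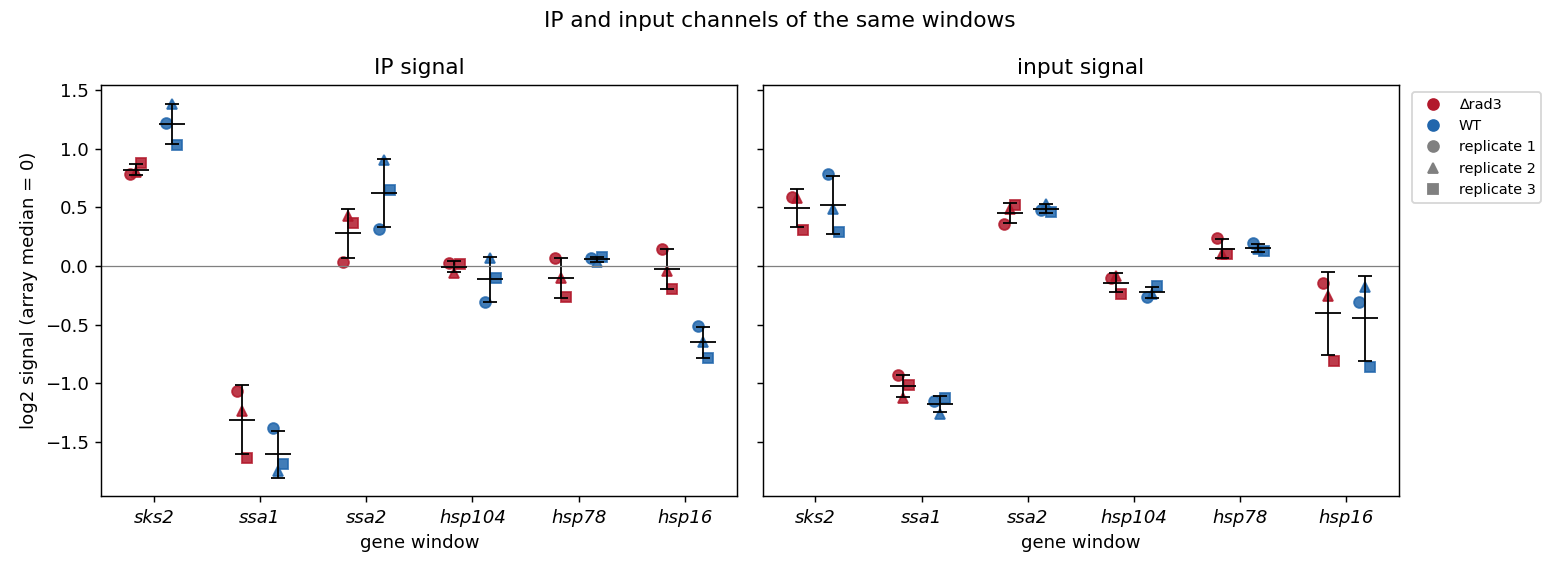
Centred log2 signal (vertical axes) of the IP and the input channel at the 6 gene windows, ∆rad3 in red left of WT in blue, 1 point an array. IP values of the strains do not overlap at sks2 (∆rad3 0.78 to 0.88, WT 1.03 to 1.38) or at hsp16 (∆rad3 -0.19 to 0.15, WT -0.78 to -0.52), and input values overlap at both.

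Along hsp16 the difference had the same sign in each stretch. The 2 upstream probes averaged 0.37 ± 0.33 in ∆rad3 and -0.30 ± 0.38 in WT. The probe in the part nearer the start was at 0.64 ± 0.29 in ∆rad3 and 0.17 ± 0.30 in WT, and the 2 probes nearer the end at 0.56 ± 0.39 in ∆rad3 and 0.02 ± 0.30 in WT. Downstream, 2 probes averaged 0.06 ± 0.19 in ∆rad3 and -0.50 ± 0.43 in WT. Within the window the highest ∆rad3 level was thus over the gene itself. The whole window, flanks included, stood above the surrounding probes by 0.42 ± 0.23 in ∆rad3 and 0.02 ± 0.20 in WT. The strain gap was not confined to the window. Upstream of it, ∆rad3 stood at 0.50 and WT at 0.02 at -562.5 bp from the gene start. At -1867.5 bp they stood at 0.61 and -0.10. Downstream of the window, at 2293.5 bp, the order turned, with 0.02 in ∆rad3 and 0.50 in WT.

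The window value is the mean of the 7 probes, so their single values are not separate support for the gap. Of the 7 probes, 3 were higher on every ∆rad3 array than on every WT array, against 5.64% of all probes. The probe over the GAANNTTC match shown above (chrII:2661061-2661119) stood at -0.01, 0.09 and 0.74 in ∆rad3, against -0.18, -0.39 and -0.45 in WT. A probe inside the gene stood at 0.33, 0.12 and 0.65 in ∆rad3, against -0.21, -0.94 and -0.05 in WT. None of the 70 probes differed between strains at a limma adjusted p under 0.05 (0.0% of all probes). At an unadjusted p under 0.05, 1994 probes of the array did (3.27% higher and 1.44% lower), and 5 with the replicate block at the adjusted threshold (0.0118%, all higher). Across the list, 5 probes were higher on every ∆rad3 array (3 at hsp16 and 2 at ssa1) and 6 were lower, against 5.71% of all probes (3 at sks2 and 1 each at ssa2, hsp104 and hsp78).

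**Figure D4:**
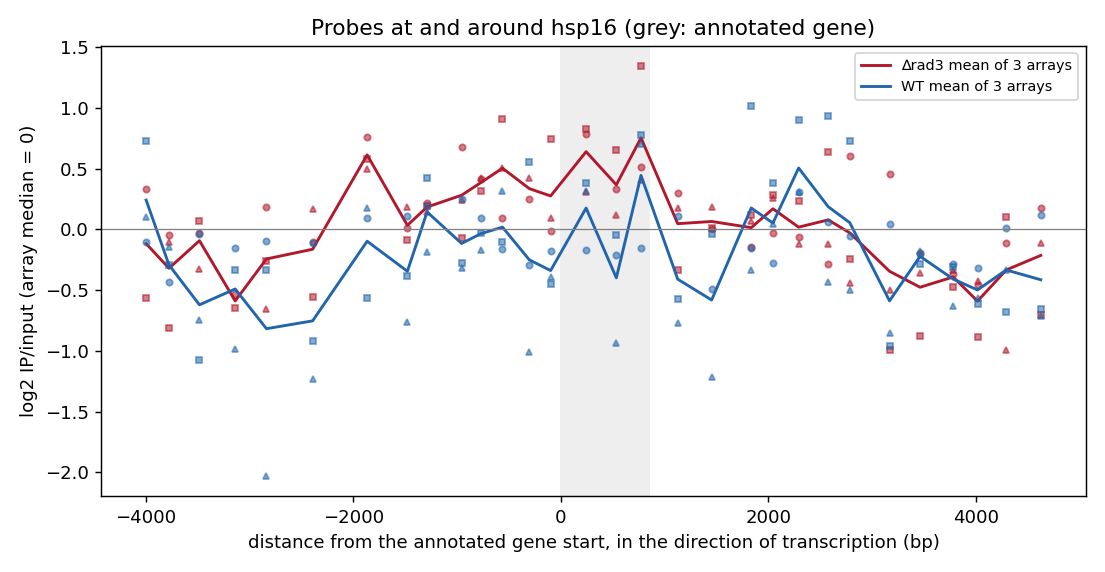
Log2 Rad52 IP/input (vertical axis) at probes around hsp16 by distance from the annotated gene start in bp (horizontal axis), ∆rad3 in red and WT in blue, points for arrays and lines for strain means. Over the gene the ∆rad3 mean lies above the WT mean at every probe, reaching 0.75 in ∆rad3 and 0.44 in WT at the probe nearest the gene end. The gap is also seen upstream of the window, as at -562.5 bp (0.50 in ∆rad3, 0.02 in WT).

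The 6 genes were ordered by level within each strain. In ∆rad3 the order was sks2, hsp16, hsp104, ssa2, hsp78 and ssa1, and the ranges of each pair of neighbours overlapped. In WT it was sks2, ssa2, hsp104, hsp78, hsp16 and ssa1, with no overlap between sks2 and ssa2 or between hsp104 and hsp78. Without WT replicate 2 the WT means of hsp16 (-0.056) and hsp78 (-0.078) changed places in this order. The medians over the 6 genes were -0.0075 in ∆rad3 and 0.02 in WT, against 0.0034 and -0.02 over all gene windows, with 3 of 6 genes above 0 in each strain.

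**Figure D5:**
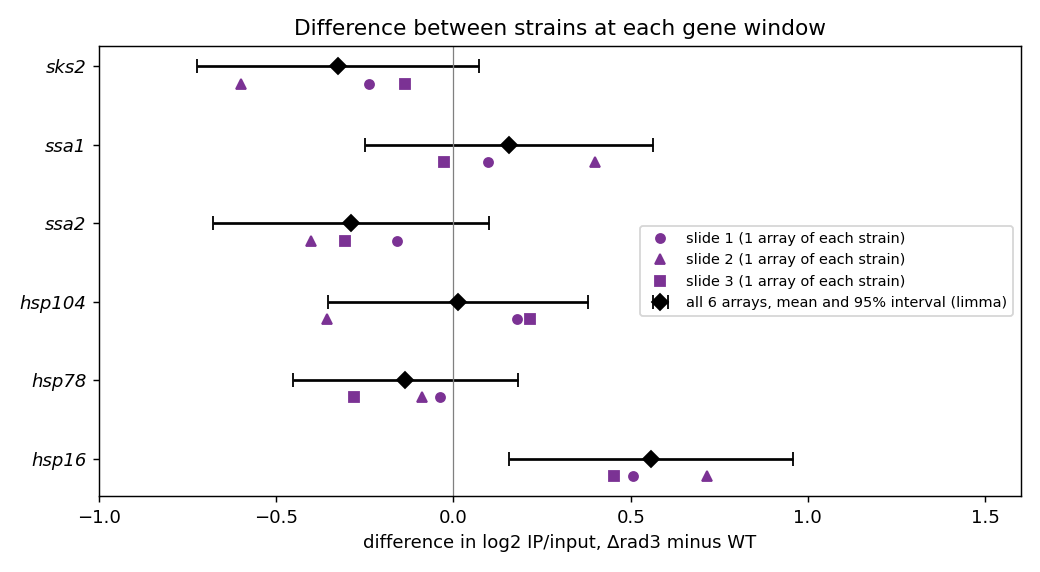
Difference in log2 Rad52 IP/input, ∆rad3 minus WT (horizontal axis), at the 6 gene windows, with the limma estimate and 95% interval in black and the 3 within-slide differences in purple. The hsp16 interval (0.16 to 0.96) leaves out 0 before adjustment, and the other 5 intervals include 0.

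Base composition was read from the assembly for the same windows. The windows of ssa2, ssa1 and sks2 had A+T contents of 57.6%, 59.3% and 61.3%, low among protein-coding gene windows, whose median was 64.5%. Those of hsp78 and hsp104 were as low, at 61.5% and 61.7%, and the hsp16 window, at 64.7%, was close to the median.

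Other windows came close to each gene over the 6 arrays. The most similar to sks2 was ght2, a hexose transporter gene on chromosome II, with a root mean square difference of 0.0898, and 133 of 10366 windows lay within 0.2. For hsp16 it was the lncRNA SPNCRNA.5212 (0.0835, with 174 windows within 0.2). The others were SPNCRNA.848 for ssa1 (0.0636), cqd2 for ssa2 (0.0652), SPNCRNA.607 for hsp104 (0.0535) and naa15 for hsp78 (0.0393). For these 4 genes, between 602 and 1632 windows lay within 0.2.

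A wider list of 50 other chaperone genes had 40 measured members. Its medians were 0.03 in ∆rad3 and -0.03 in WT, and that of the difference was 0.04, against 0.02 over all gene windows. One gene of the 40, pfd6, was enriched in ∆rad3, where 3.09% of all gene windows and 48 of the 4288 protein-coding ones were. The gene pfd6 encodes a subunit of prefoldin, the complex that passes actin and tubulin to the chaperonin. It stood at 0.50, 0.38 and 0.98 in ∆rad3, against 0.02, 0.03 and 0.45 in WT (limma adjusted p = 0.0438 in ∆rad3 and 0.431 in WT). The strains overlapped, and the difference of 0.45 (SE 0.20) had a limma adjusted p of 0.562. Without WT replicate 2 the difference was 0.38 (limma adjusted p = 0.632). None of the 40 was enriched in WT, where 4.05% of all gene windows and 130 of the 4288 protein-coding ones were. None differed between strains at a limma adjusted p under 0.05, as for all gene windows (0.0%).

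Of the 40 genes, 2 were higher on every ∆rad3 array (5% of the list, against 9.7% of all gene windows), both J protein genes, partners of Hsp70. The gene zuo1, whose product works with the ribosome-bound Hsp70, averaged 0.21 ± 0.15 in ∆rad3 and -0.19 ± 0.08 in WT, a difference of 0.40 (limma adjusted p = 0.505). The gene xdj1 averaged 0.43 ± 0.33 in ∆rad3 and -0.45 ± 0.64 in WT, a difference of 0.88 (limma adjusted p = 0.421) that was 0.51, with a WT mean of -0.08, without WT replicate 2, which stood at -1.19. The mitochondrial Hsp70 gene ssc1, at 0.26 ± 0.18 in ∆rad3 and 0.42 ± 0.16 in WT (limma adjusted p = 0.236 and 0.0440), stayed under the level set for a call. Without WT replicate 2 the ssc1 level in WT was 0.34 (limma adjusted p = 0.161). The mitochondrial chaperonin gene hsp10 averaged -0.01 ± 0.14 in ∆rad3 and 0.42 ± 0.39 in WT, or 0.28 in WT without WT replicate 2. The exchange factor gene bag101 was the 1 of 40 that was lower on every ∆rad3 array (2.5%, against 5.77% of all gene windows), at -0.10 ± 0.07, against 0.08 ± 0.10 in WT (limma adjusted p = 0.744).

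The lowest levels of the wider list were at aha1, an activator of the Hsp90 ATPase, and at pfd4 and mas5. In ∆rad3 they were aha1 at -0.47 ± 0.09 and egd2, a subunit of the nascent chain complex, at -0.33 ± 0.38. In WT they were pfd4, another prefoldin subunit, at -0.66 ± 0.39 (limma adjusted p = 0.0389) and mas5, a J protein gene, at -0.48 ± 0.42. Without WT replicate 2 the WT means of pfd4 and mas5 were -0.58 and -0.30. Prefoldin thus held both the highest window in ∆rad3 and the lowest in WT, and its 5 genes had medians of 0.07 in ∆rad3 and 0.06 in WT.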

How the data were processed

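Rad52 ChIP-on-chip was analysed on 6 arrays, 3 of each strain, grouped by their titles. Each deposited file comes from Agilent Feature Extraction 10.7.3.1 (45220 spots, 2513 of them controls). Per the file headers, its intensity columns hold processed red and green signals after background subtraction and a linear dye normalization. The headers name a CGH protocol for replicates 1 and 3 of both strains and a ChIP protocol for replicate 2 of both. This goes with the replicate number, and its part in the values was not tested. A log10 column, also deposited, held red divided by green and was used as a check. The labels put IP in the 555 (green) and input in the 647 (red) channel of every array. The series text speaks of reciprocal labelling; with a single orientation, any dye bias stays in the levels. WT replicates 1 and 2 carry a chromatin protocol with fragments of 400 to 500 bp; WT replicate 3 and the ∆rad3 samples carry an RNA protocol text, with HU at 10 min after release.

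The log2 ratio of green over red was computed from the deposited intensity values and centred on each array's median, without loess or quantile normalization. Control and outlier spots were dropped, between 4 and 3535 an array, and saturated spots kept. Probes dim in the input on over 3 of 6 arrays were dropped, and the probe mean was taken for gene windows with at least 2 probes. Channels were shown without the outlier filter. Both strains entered 1 limma fit (lmFit, eBayes, 4 residual degrees of freedom). Same-numbered arrays shared a slide and scan, so the numbers pair the samples by slide. Their deviations from the strain means correlated at 0.561, 0.129 and 0.265. Those of WT replicate 2 correlated more with ∆rad3 replicate 3 (0.196). The main fit leaves this pairing out, and the blocked fit is given where it changes a call or a count. With the block, the limma adjusted p of the strain difference was 0.392 at sks2, 0.660 at ssa1 and 0.408 at ssa2. It was 0.980 at hsp104, 0.694 at hsp78 and 0.140 at hsp16. Between arrays, windows correlated at 0.161 to 0.741.

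Coordinates are those of the files (header build Spombe:NCBI:Feb2002). Names and sequence came from ASM294v3, after probe lengths were matched to its base composition: 107 of 107 windows of 100000 bp used matched within 20 bp, and 1 of 19 on chromosome I beyond 3700000. All lists were chosen with earlier results of these data known. Named genes were all listed genes that could be placed, the most similar window more than 10 kb away, and, of the other chaperones, the 2 highest and 2 lowest per strain, called ones and those whose strains did not overlap (the last were added after seeing values). Of those others, 5 lie beyond the limit on chromosome I and 5 names were not matched. Alternatives were another background correction, scaling, filters, the variance model, the window, the block and leaving out arrays. The scripts were tested on simulated data. Tools were R 4.3.3, limma 3.58.1, Python 3.11.15, pandas 2.3.3, Biopython 1.88 and matplotlib 3.10.9.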

Additional observations from a re-analysis of the deposited data

How the results depend on the processing

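Leaving out single arrays moved the limma counts between 6 and 607 gene windows enriched in ∆rad3, 93 and 1016 in WT, 0 and 526 probes in ∆rad3, and 1 and 568 in WT, against 321, 421, 226 and 258 with all arrays. No window or probe differed between strains in any of those fits. Gene windows enriched in ∆rad3 numbered 709 with arrays scaled to one spread, 574 with the replicate block, 105 with a trended robust variance, 60 for gene spans without flanks, 631 with the block and WT replicate 2 left out, and 17 over protein-coding genes only. Those in WT numbered 0 with normexp, 0 with the trended variance, 150 for gene spans without flanks and 133 over protein-coding genes only. Windows that differed numbered 131 with normexp, 133 scaled, 75 with the block, 5 trended and 305 with the block and WT replicate 2 left out. Probes enriched in ∆rad3 numbered 416 with normexp, 1266 scaled, 877 with the block, 53 trended and 2031 with the block and WT replicate 2 left out. Those in WT numbered 0 with normexp, 1137 with the block and 0 trended, and probes that differed numbered 26, 43, 5 and 72 with normexp, scaling, the block, and the block without WT replicate 2. The last fit and the protein-coding one were chosen after seeing the data. The WT call at sks2 was lost with normexp (0.28, limma adjusted p = 0.223) and with the trended variance (adjusted p = 0.0525). With normexp the sign turned for the sks2 difference (0.089), the ssa1 WT level (0.17) and difference (-0.26), and the ssa2 WT level (-0.20) and difference (0.072), none of them called. The hsp104 difference ran from -0.070 to 0.11 over single arrays left out, with -0.053 for the gene without flanks and -0.13 for the median of probes, and its WT level was -0.064 with the block and WT replicate 2 left out. The hsp16 WT level was 0.073 without flanks. The cause was not tested. The hsp16 difference kept its sign under all 17 alternatives, from 0.36 to 0.72, with limma adjusted p between 0.112 and 0.917. With the replicate block 1 member probe was enriched in ∆rad3 and 5 in WT, against 0 in ∆rad3 and 1 in WT without it. The block changed no other call on the members. Weak IP signal, 10 of 60 spots at ssa1, limits what that gene can show. The alternative that keeps only specific probes was not run, since probe sequences were not used here.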
